A study of Homo sapiens with 2 samples.

Results

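Zinc transporters and metallothioneins are the proteins that move zinc across membranes and hold it inside the cell. The genes described here were the protein-coding rows of the deposited expression table whose symbol is SLC30A or SLC39A followed by a number, MT1 followed by 1 letter, MT2A, MT3, MT4 or MTF1. The rule found 36 of the 17409 protein-coding genes and of the 21382 genes of any kind in the table, namely 10 SLC30A genes, 14 SLC39A genes, 11 metallothionein genes and MTF1. No measured value entered the rule. RNA-Seq was performed on untreated cells of 2 established human lines of prostate cancer (PCa), RC77 T/E as well as MDA PCa 2b, and each gave 1 library. The study set out to find the surface receptors and ligands through which such cells and platelets act on each other, and the libraries served to show which genes each line expresses. MDA PCa 2b cells were grown in Kaighn's modification of Ham's medium with fetal bovine serum, cholera toxin, epidermal growth factor (EGF), phosphoethanolamine, hydrocortisone, selenite and insulin. RC77 T/E cells were grown in a serum-free keratinocyte medium with EGF and bovine pituitary extract, so that a difference between the libraries cannot be told apart into cell line and medium.

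As background, the secretory luminal epithelium of the healthy prostate is known for holding and secreting large amounts of zinc together with citrate. Proteins of the SLC39A (ZIP) family bring zinc into the cytosol from outside the cell or from organelles, and proteins of the SLC30A (ZnT) family carry it out of the cytosol, either out of the cell or into organelles and vesicles. Metallothioneins are small, cysteine-rich proteins that bind zinc, copper and cadmium. MTF1 is the transcription factor that senses free zinc and binds metal response elements in front of metallothionein genes and of SLC30A1.

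The expression of each locus was deposited as TPM, the abundance of its transcripts after correction for their length, as a share of all transcripts of the library. Read numbers cannot be recovered from this unit, so that the depth of each library is unknown, and with 1 library per line no value has a replicate error and no difference a replicate check or a p-value. Many values from 1 TPM upwards had lost their decimal mark on deposition. The mark was restored from the mean and standard error in the same row, which left 1 possible position for 18 of the 36 genes and 2 or 3 positions for the other 18, each a factor of 10 apart. Where the mark was open, each possible value is given, and the values of both lines go together, the lower with the lower and the higher with the higher. The fold difference between the lines does not depend on the position. Whether a gene reached 1 TPM does not depend on it either. This level was applied here to each line, whereas the study applied it to the average over its samples, beside a minimum share of samples with expression. A gene at 0 TPM is called listed at 0, since EEF1A1, a translation factor that every cell uses, was also listed at 0 in MDA PCa 2b against 2393 TPM in RC77 T/E.

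The cell lines differed in their epithelial type. All 10 luminal prostate marker genes examined reached 1 TPM in MDA PCa 2b and 4 of 10 did so in RC77 T/E, where 5 were listed at 0, among them KLK3, which encodes prostate-specific antigen. Of 6 basal markers, 3 reached 1 TPM in MDA PCa 2b, whereas RC77 T/E had all 6 at that level. Not every marker followed this split. The luminal keratin gene KRT18 was at 320 TPM in MDA PCa 2b against 325 in RC77 T/E. KRT8, also luminal, was at 39.1 or 391 TPM against 31.8 or 318. The basal keratin gene KRT14 was at 37.4 TPM in MDA PCa 2b against 3255 in RC77 T/E. The comparison thus sets a line with luminal and some basal markers beside a line with basal and few luminal markers, luminal keratins among them. The part of this difference in the results below was not tested. The highest of 6 platelet transcripts was GP1BA, at 1.39 TPM in MDA PCa 2b against 0.778 in RC77 T/E.

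Of the 36 zinc genes, 24 reached 1 TPM in MDA PCa 2b and 23 did so in both lines, RC77 T/E having no others, and 12 were below 1 TPM in both. Among all protein-coding genes the share at 1 TPM or more was 57.9% for MDA PCa 2b, against 61.7% for RC77 T/E. The ratio between the lines was taken on the log2 scale after adding 1 TPM to each value, with RC77 T/E above MDA PCa 2b and with open marks at their lowest position, and was used where the mean of both lines was 1 TPM or more. This measure understates the difference of low genes. The 23 genes that passed this filter were the same as those at 1 TPM or more in both lines, so that none passed through 1 line alone. Of these, 6 exceeded 2-fold in favour of RC77 T/E (MT2A, MT1X, MT1E, MT1F, SLC39A13 and SLC39A10), 6 exceeded 2-fold in favour of MDA PCa 2b (SLC39A4, SLC30A4, SLC39A6, SLC39A11, SLC39A7 and MT1G), and 11 were within 2-fold. Under the same filter 2-fold was reached in favour of RC77 T/E by 19.1% of 11012 protein-coding genes, and in favour of MDA PCa 2b by 19.7%. On the log2 scale the median was -0.20 for the 23 zinc genes and -0.15 for the 11012 genes. The families differed in their medians, with 3.72 for 5 metallothioneins, -0.24 for 6 SLC30A genes and -0.77 for 11 SLC39A genes. Without the filter, over all genes above 0 in either line, the medians were 1.00 for 8 metallothioneins, -0.06 for 9 SLC30A genes and -0.38 for 14 SLC39A genes.

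**Figure D1:**
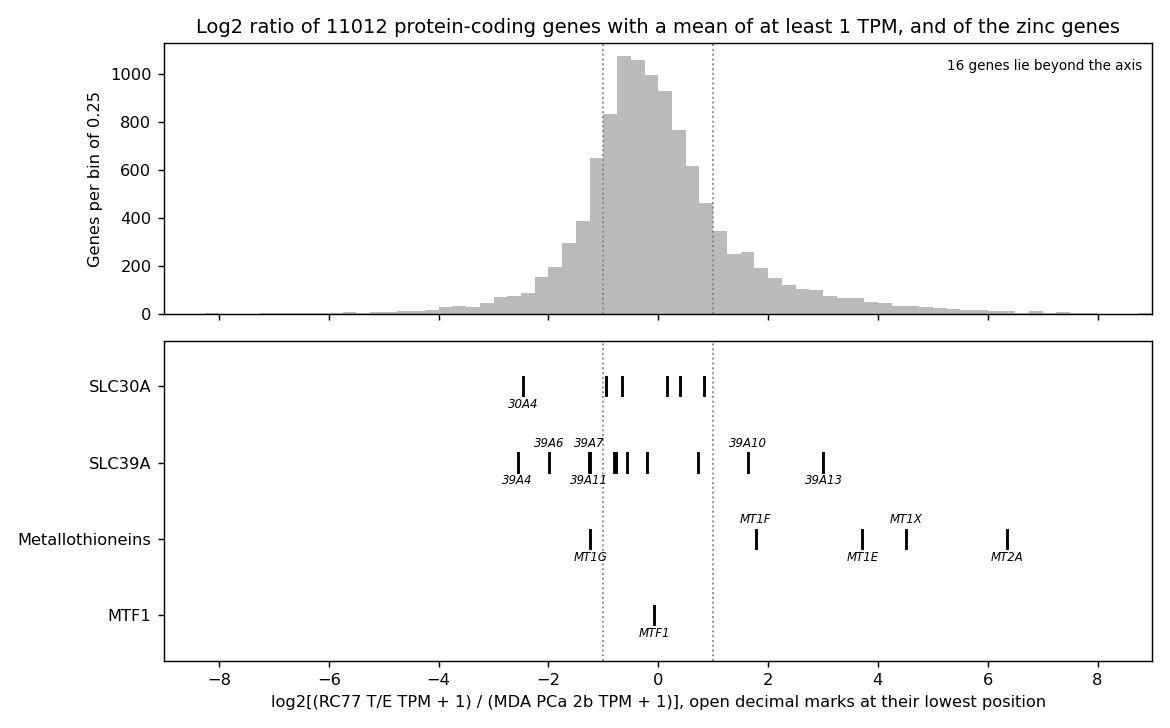
Log2 ratio between the lines, log2 of (RC77 T/E TPM + 1) over (MDA PCa 2b TPM + 1), for genes whose mean was 1 TPM or more: the upper panel is a histogram of 11012 protein-coding genes in bins of 0.25, and each bar in the lower panels is 1 of the 23 zinc genes, with names for those past 2-fold (dotted lines) and for MTF1. MT2A lies farthest to the right at 6.36 and SLC39A4 farthest to the left at -2.56, while the SLC30A genes lie between -2.46 and 0.83; 16 of the 11012 genes lie beyond the axis.

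Among the 23 zinc genes at 1 TPM or more in both lines, the metallothionein genes MT2A, MT1X and MT1E showed the widest differences between the lines. MT2A, the most widely expressed human metallothionein gene, was at 156 TPM in MDA PCa 2b against 12903 in RC77 T/E. It was therefore 82.6-fold higher in RC77 T/E, where 6 of the 21382 genes had a higher value. MT1X was at 84.0 TPM in MDA PCa 2b against 1947 in RC77 T/E, a 23.2-fold difference in the same direction, and 62 genes were higher than MT1X in RC77 T/E. Neither gene had an open decimal mark. MT1E was at 2.77 or 27.7 TPM in MDA PCa 2b against 48.6 or 486 in RC77 T/E, and was 17.5-fold higher in RC77 T/E. MT1F, at 5.08 or 50.8 TPM in MDA PCa 2b against 19.8 or 198 in RC77 T/E, was 3.89-fold higher in RC77 T/E. All 4 of these genes thus lay on the same side.

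MT1G went the other way. It was at 8.74, 87.4 or 874 TPM in MDA PCa 2b against 3.14, 31.4 or 314 in RC77 T/E, which is 2.78-fold higher in MDA PCa 2b. Of the 5 metallothioneins at 1 TPM or more in both lines, 4 were thus higher in RC77 T/E and MT1G alone was higher in MDA PCa 2b. The remaining 6 metallothionein genes were low or listed at 0. MT4, a metallothionein of stratified squamous epithelium, was at 1.33 TPM in MDA PCa 2b but listed at 0 in RC77 T/E. MT3, the form best known from the brain, was at 0.454 TPM in MDA PCa 2b but listed at 0 in RC77 T/E. MT1M was listed at 0 in MDA PCa 2b and was at 0.165 TPM in RC77 T/E. MT1A, MT1B and MT1H were listed at 0 in both lines. MT4 was the single zinc gene that reached 1 TPM in MDA PCa 2b and not in RC77 T/E.

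The TPM of the 11 metallothionein genes summed, from the lowest to the highest positions of the marks, to 259 and 1195 in MDA PCa 2b, and to 14922 and 15848 in RC77 T/E. MT2A made up 81.4 to 86.5% of that sum in RC77 T/E and 13.1 to 60.4% in MDA PCa 2b. In RC77 T/E the metallothionein transcripts were thus mostly those of MT2A at every position of the marks, whereas in MDA PCa 2b the make-up is not settled, since MT1G at its highest position would exceed MT2A.

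The 11 genes lie in 1 cluster on chromosome 16, at chr16:56565073-56684196 on GRCh38, a span of 119.1 kb. They are all on the plus strand except MT1G. MT4 and MT3, on the plus strand, also had their higher values in MDA PCa 2b, with log2 ratios of -1.22 and -0.54, but their means were below 1 TPM. Along the chromosome, genes at 1 TPM or more in both lines and the other genes are interspersed. MT4 and MT3 start before MT2A, at -43.5 and -19.5 kb from its start, MT1E starts 16.9 kb after it, and MT1X, the last gene, starts 73.9 kb after it. MT1M, MT1A and MT1B, all below 1 TPM in both lines, lie between MT1E and MT1F, and MT1H, listed at 0 in both lines, starts 61.2 kb after the start of MT2A, between MT1G and MT1X. Of 5 further rows whose symbol starts with MT1 but falls outside the rule, MT1L, an unprocessed pseudogene that starts 8.8 kb after the start of MT2A, was at 0.0901 TPM in MDA PCa 2b against 92.4 in RC77 T/E. The other 4 (MT1DP, MT1HL1, MT1IP and MT1JP) were listed at 0 in both lines.

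**Figure D2:**
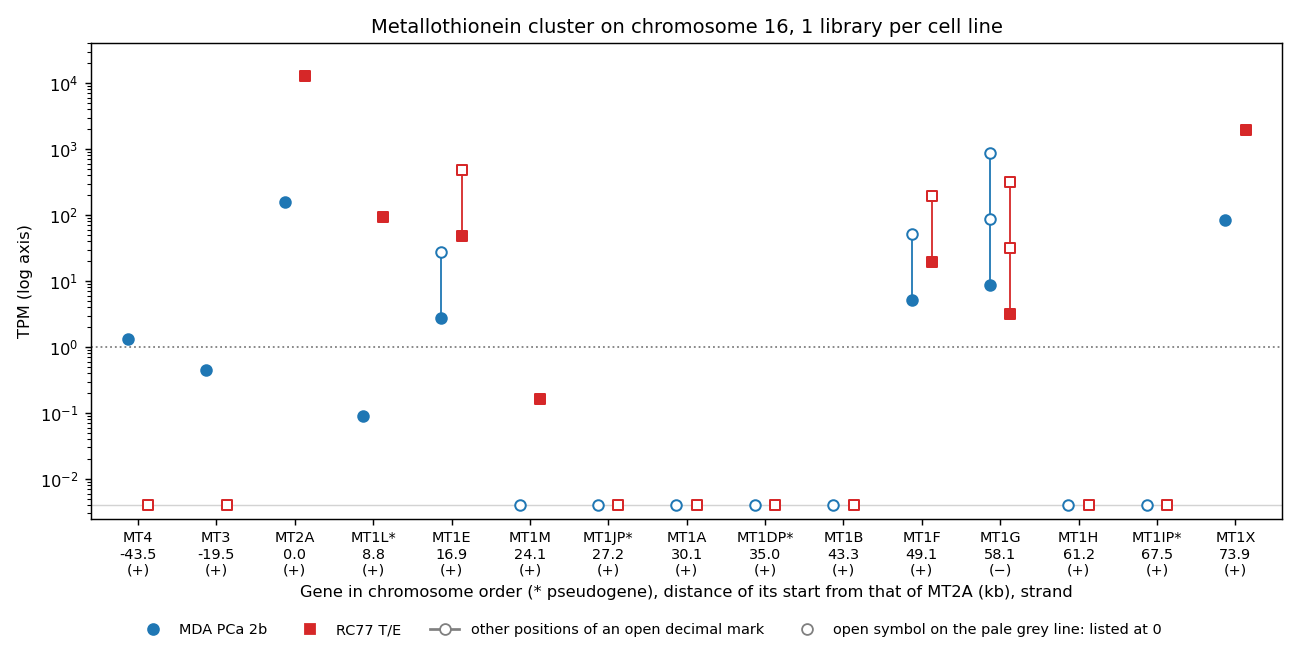
TPM (log axis) of the metallothionein genes and pseudogenes of the chromosome 16 cluster in MDA PCa 2b (circles) and RC77 T/E (squares), 1 library each, in chromosome order with the distance from the start of MT2A in kb and the strand below each name. Joined open symbols are the other possible positions of an open decimal mark, open symbols on the lowest line are genes listed at 0, and the dotted line is 1 TPM. MT2A and MT1X, 73.9 kb apart, reach 12903 and 1947 TPM in RC77 T/E, while MT1A, MT1B and MT1H between them are listed at 0 in both lines and MT1G is higher in MDA PCa 2b.

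Metallothionein genes are near-copies of each other, and reads from 1 member can be assigned to another. In GENCODE 29 transcripts, the share of distinct 31-base words that also occur in another metallothionein gene was 7.25% for MT2A, 5.3% for MT1X and 3.25% for MT1F, and 15.6% for MT1E. For MT1G it was 23.3%, of which the largest part, 14.3% of its words, was shared with MT1H, and for MT1H it was 27.7%. MT1M had 23.8%, MT1A 18.9% and MT1B 6.6%, while MT3 had 1.2% and MT4 had 0. For the pseudogene MT1L it was 16.3%. Each share is taken over the words of all transcripts of a gene, so that long transcripts lower it. By number, MT2A shared 98 words, MT1X 97, MT1A 69, MT1F 63 and MT1L 62. Higher numbers were shared by MT1E (168), MT1G (188), MT1H (200) and MT1M (217). How many reads were assigned to another member was not tested, and the shares do not rank the certainty of the values.

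The sequences before the start of 4 metallothionein genes and of SLC30A1 are shown because this is where MTF1 is known to act, and because they set genes that were high in RC77 T/E (MT2A and MT1X) beside neighbours listed at 0 (MT1B and MT1H) and beside the exporter gene that MTF1 also controls. Each is the stretch of 250 bases before the RefSeq transcription start on GRCh38.p14, read 5′ to 3′ on the strand of the gene. Capitals mark matches to the core of the metal response element, searched as TGCACNC and TGCGCNC on both strands, so that a match on the other strand reads as its reverse complement. The stretches are chr16:56608334-56608583 (plus strand) for MT2A, chr16:56682220-56682469 (plus) for MT1X, chr16:56651636-56651885 (plus) for MT1B, chr16:56669564-56669813 (plus) for MT1H and chr1:211579162-211579411 (minus) for SLC30A1.
MT2A: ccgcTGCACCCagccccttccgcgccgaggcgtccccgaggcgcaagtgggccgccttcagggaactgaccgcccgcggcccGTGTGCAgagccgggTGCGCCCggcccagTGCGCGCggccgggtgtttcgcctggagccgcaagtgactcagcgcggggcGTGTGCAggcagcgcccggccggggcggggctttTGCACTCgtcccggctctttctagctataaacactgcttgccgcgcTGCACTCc
MT1X: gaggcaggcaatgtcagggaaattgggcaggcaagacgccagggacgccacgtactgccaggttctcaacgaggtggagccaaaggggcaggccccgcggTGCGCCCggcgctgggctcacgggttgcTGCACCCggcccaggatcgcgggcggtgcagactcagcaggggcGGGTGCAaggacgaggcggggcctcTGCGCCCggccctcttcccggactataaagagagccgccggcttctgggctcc
MT1B: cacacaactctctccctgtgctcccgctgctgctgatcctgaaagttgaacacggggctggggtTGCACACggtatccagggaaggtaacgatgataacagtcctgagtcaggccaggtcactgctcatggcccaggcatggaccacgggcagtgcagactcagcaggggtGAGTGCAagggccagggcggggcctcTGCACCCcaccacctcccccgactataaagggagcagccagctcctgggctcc
MT1H: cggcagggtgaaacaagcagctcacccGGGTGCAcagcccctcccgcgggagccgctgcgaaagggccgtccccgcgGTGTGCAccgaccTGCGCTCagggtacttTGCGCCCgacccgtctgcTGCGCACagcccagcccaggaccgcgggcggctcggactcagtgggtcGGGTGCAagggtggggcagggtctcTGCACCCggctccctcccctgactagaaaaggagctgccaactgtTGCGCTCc
SLC30A1: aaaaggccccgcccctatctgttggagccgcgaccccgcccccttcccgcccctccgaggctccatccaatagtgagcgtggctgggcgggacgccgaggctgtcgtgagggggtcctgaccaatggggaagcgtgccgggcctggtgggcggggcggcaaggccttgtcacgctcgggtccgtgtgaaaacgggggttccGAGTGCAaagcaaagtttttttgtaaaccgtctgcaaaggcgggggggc

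MT2A had 7 matches in its window, 5 on its own strand and 2 on the other. MT1X had 4, MT1B 3 and MT1H 8. Of 35116 windows of the same length before RefSeq starts, 24.8% held at least 1 match, 1.58% at least 3 and 0.37% at least 4. These windows were not matched for base composition. G and C made up 73.2% of the window of MT2A, 70% for MT1X, 62.4% for MT1B and 70.4% for MT1H. Among these 4 genes MT1H, listed at 0 in both lines, had more matches than MT2A, and MT1B, also listed at 0, had 1 fewer than MT1X. Whether the number of matches follows the levels was not tested, since MT1E, MT1F and MT1G had no window. MT4 had 3 matches. All 5 metallothioneins with a window therefore had at least 3. A match is a description of the letters and not evidence of binding.

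Among the transporters the matches were fewer. SLC30A1 had 1 match, on the strand opposite to the gene. SLC30A4 and SLC30A6 had 1 each, SLC30A2 had 3, and SLC30A3 had 2 before one start and 1 before the other. The windows of SLC30A5, SLC30A7, SLC30A9 and SLC30A10 held none, nor did that of MTF1. In the SLC39A family 5 of 12 genes with a window had a match before at least 1 of their starts, namely SLC39A1, SLC39A3, SLC39A6, SLC39A8 and SLC39A13. Several of the 12 have more than 1 window, and none of them had a match before more than 1 start. This count per gene is therefore not comparable with the 24.8% of single windows that held a match. No window was found in the table for SLC30A8, SLC39A4, SLC39A14, MT3, MT1E, MT1M, MT1A, MT1F and MT1G.

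**Figure D3:**
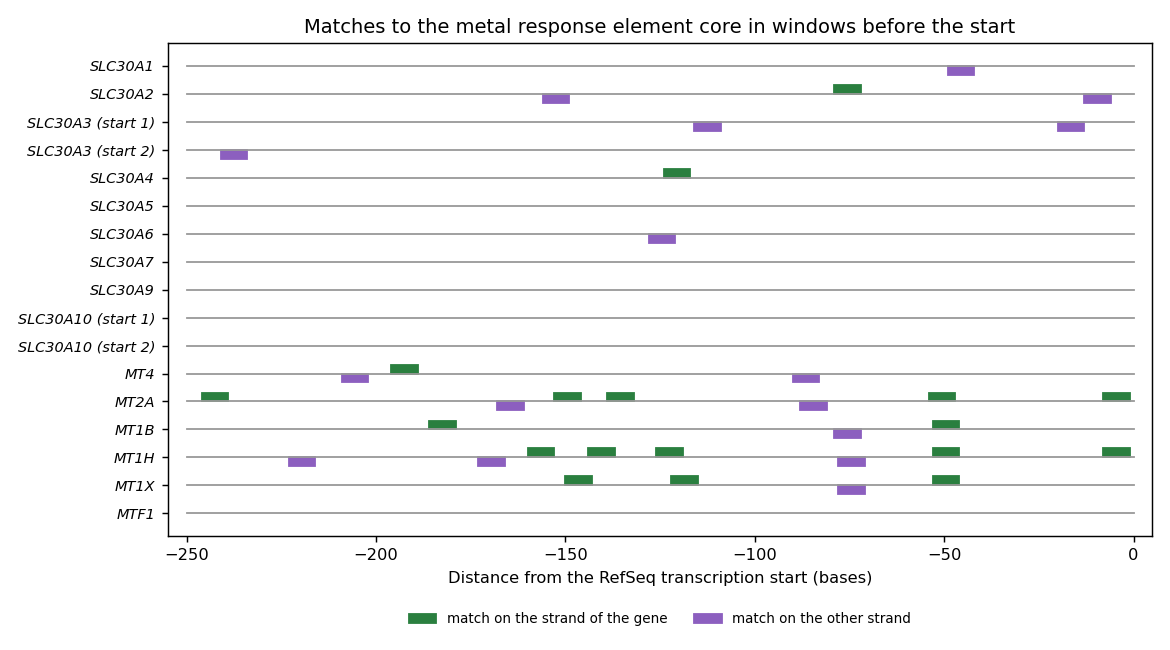
Matches to the metal response element core in the 250 bases before the RefSeq start of SLC30A genes, metallothionein genes and MTF1; the horizontal axis is the distance from the start in bases, each line is 1 start, and boxes above or below the line are matches on the strand of the gene or on the other strand. MT1H has 8 matches, MT2A 7 and MT1X 4, whereas SLC30A1 has 1 and MTF1 none.

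MTF1 itself hardly differed between the lines. It was at 4.26 TPM in MDA PCa 2b against 3.98 in RC77 T/E, a 1.07-fold difference and a log2 ratio of -0.08, whose sign turned after centring on the median of all genes. SLC30A1, the zinc exporter of the plasma membrane, was at 10.99 TPM in MDA PCa 2b against 12.5 in RC77 T/E, 1.13-fold higher in RC77 T/E. The transcripts of MTF1 and SLC30A1 were both within 2-fold, and that of MT2A differed 82.6-fold in the same libraries. Whether the activity of MTF1 differed between the lines was not tested.

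Of the 10 SLC30A exporters, 6 reached 1 TPM in both lines and 4 were below 1 TPM in both. SLC30A4, which carries zinc into endosomal and lysosomal vesicles, was at 12.3 or 123 TPM in MDA PCa 2b against 1.42 or 14.2 in RC77 T/E. It was 8.70-fold higher in MDA PCa 2b, the widest difference among the exporters and, at a log2 ratio of -2.46, the single one past the limit of 2-fold. SLC30A9, a mitochondrial zinc exporter, was at 5.05, 50.5 or 505 TPM in MDA PCa 2b against 2.11, 21.1 or 211 in RC77 T/E. Its plain ratio was 2.39-fold in favour of MDA PCa 2b, but its log2 ratio with 1 TPM added was -0.96 at the lowest position, just inside the limit, and -1.25 at the highest.

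The exporters of the early secretory pathway, which load zinc into the Golgi and into enzymes made there, were within 2-fold and did not share a direction. SLC30A5 was at 31.5 or 315 TPM in MDA PCa 2b against 19.6 or 196 in RC77 T/E, 1.602-fold higher in MDA PCa 2b. SLC30A6, which pairs with SLC30A5 in 1 complex, was at 8.26 or 82.6 TPM in MDA PCa 2b against 11.1 or 111 in RC77 T/E, 1.35-fold higher in RC77 T/E. The partners thus lay on opposite sides, both within 2-fold. SLC30A7, a Golgi exporter, was at 5.07 or 50.7 TPM in MDA PCa 2b against 9.78 or 97.8 in RC77 T/E, 1.93-fold higher in RC77 T/E.

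The exporters of specialised secretory cells were low in both lines. SLC30A2, which fills secretory vesicles of the mammary gland, was at 0.0694 TPM in MDA PCa 2b against 0.0292 in RC77 T/E. SLC30A3, the exporter of synaptic vesicles, was at 0.463 and 0.0611 TPM, respectively. SLC30A8, the exporter of insulin granules, was listed at 0 in both lines, and SLC30A10, now known mainly as a manganese exporter, was at 0.0257 TPM in MDA PCa 2b but listed at 0 in RC77 T/E. No fold difference is given for these 4 genes, since none reached 1 TPM.

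**Figure D4:**
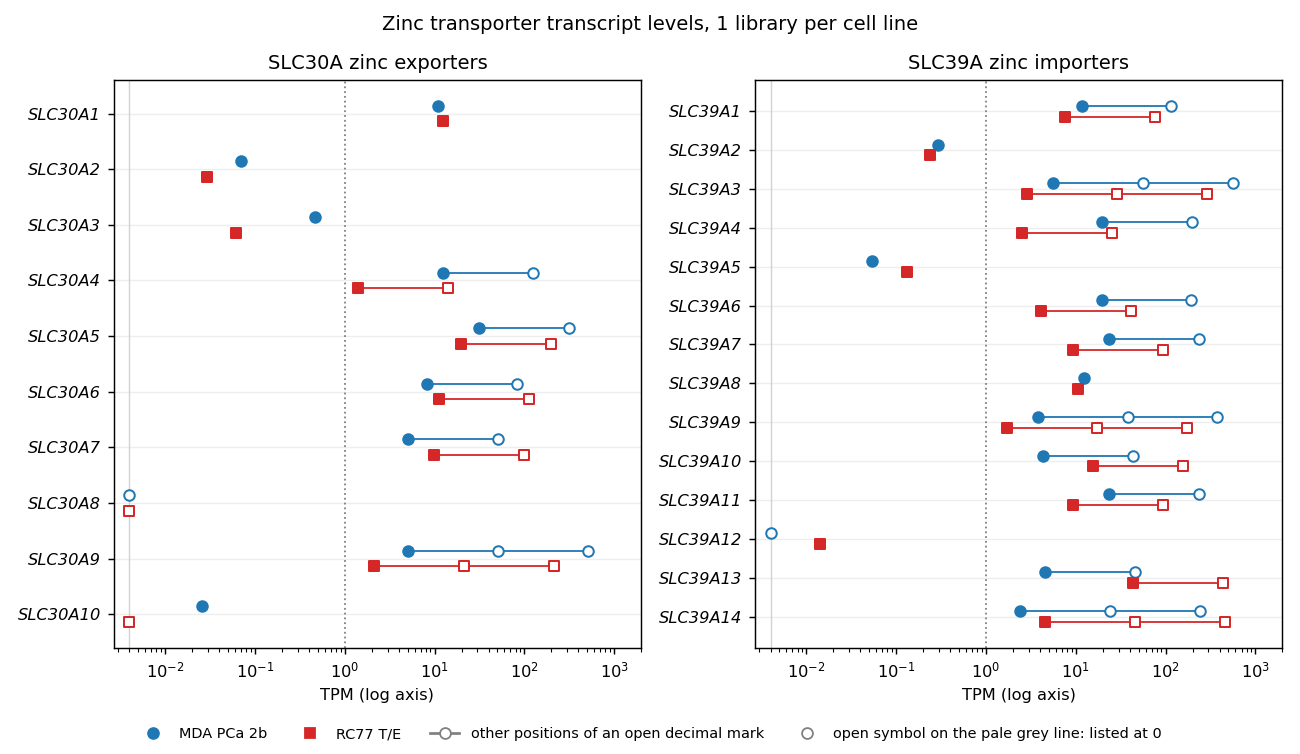
TPM (log axis) of 10 SLC30A exporter genes and 14 SLC39A importer genes in MDA PCa 2b (circles) and RC77 T/E (squares), 1 library per line. Joined open symbols are the other possible positions of an open decimal mark, which move both lines together, open symbols on the pale vertical line are genes listed at 0, and the dotted line is 1 TPM. SLC30A4 and SLC39A4 lie 8.70-fold and 7.85-fold higher in MDA PCa 2b, and SLC39A13 lies 9.61-fold higher in RC77 T/E.

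In the SLC39A family, 11 of 14 genes reached 1 TPM in both lines, and 4 of these 11 exceeded 2-fold in MDA PCa 2b, 2 exceeded 2-fold in RC77 T/E and 5 were within 2-fold. SLC39A4, the importer of dietary zinc whose loss causes acrodermatitis enteropathica, was at 19.8 or 198 TPM in MDA PCa 2b against 2.52 or 25.2 in RC77 T/E. It was 7.85-fold higher in MDA PCa 2b. SLC39A6, also called LIV-1 and first known as an estrogen-regulated gene of breast cancer cells, was at 19.4 or 194 TPM in MDA PCa 2b against 4.15 or 41.5 in RC77 T/E, 4.67-fold higher in MDA PCa 2b. Its close relative SLC39A10, with which it forms a complex, went the other way. SLC39A10 was at 4.33 or 43.3 TPM in MDA PCa 2b against 15.6 or 156 in RC77 T/E, 3.59-fold higher in RC77 T/E.

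The importers of the endoplasmic reticulum and Golgi also split by line. SLC39A7, which releases zinc from the endoplasmic reticulum, was at 23.7 or 237 TPM in MDA PCa 2b against 9.39 or 93.9 in RC77 T/E, and SLC39A11, a Golgi importer, at 23.5 or 235 TPM and 9.28 or 92.8 TPM. They were 2.52-fold and 2.53-fold higher in MDA PCa 2b. SLC39A9, another importer of the Golgi, was at 3.77, 37.7 or 377 TPM in MDA PCa 2b against 1.73, 17.3 or 173 in RC77 T/E, a plain ratio of 2.18-fold in favour of MDA PCa 2b with a log2 ratio of -0.81, inside the limit at the lowest position, and of -1.12 at the highest. SLC39A13, a Golgi and vesicle importer whose loss causes a connective tissue disorder, was at 4.52 or 45.2 TPM in MDA PCa 2b against 43.4 or 434 in RC77 T/E. At 9.61-fold higher in RC77 T/E and a log2 ratio of 3.01, it had the widest difference of all transporters.

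SLC39A1, the ubiquitous importer of the plasma membrane that is known for zinc uptake in prostate cells, was at 11.6 or 116 TPM in MDA PCa 2b against 7.53 or 75.3 in RC77 T/E, 1.54-fold higher in MDA PCa 2b. SLC39A3, of the same subfamily, was at 5.63, 56.3 or 563 TPM in MDA PCa 2b against 2.89, 28.9 or 289 in RC77 T/E, 1.95-fold higher in MDA PCa 2b. Both were within 2-fold. SLC39A2, the remaining importer of the plasma membrane in this subfamily, was at 0.291 TPM in MDA PCa 2b against 0.238 in RC77 T/E.

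SLC39A8 and SLC39A14, which carry manganese, iron and cadmium as well as zinc, were within 2-fold. SLC39A8 was at 12.3 TPM in MDA PCa 2b against 10.6 in RC77 T/E, 1.16-fold higher in MDA PCa 2b. SLC39A14 was at 2.39, 23.9 or 239 TPM in MDA PCa 2b against 4.60, 46.0 or 460 in RC77 T/E, 1.92-fold higher in RC77 T/E. SLC39A5, known from intestine and pancreas, was at 0.0543 TPM in MDA PCa 2b against 0.132 in RC77 T/E, and SLC39A12, known from the brain, was listed at 0 in MDA PCa 2b and was at 0.0142 TPM in RC77 T/E.

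By the plain ratio of TPM, which holds at every position of the marks, 8 of the 23 zinc genes at 1 TPM or more in both lines were at least 2-fold higher in MDA PCa 2b, the 6 named above with SLC30A9 and SLC39A9, and the same 6 were higher in RC77 T/E. Among 9385 protein-coding genes at 1 TPM or more in both lines, 22.1% reached 2-fold in favour of MDA PCa 2b and 14.2% in favour of RC77 T/E. The median plain log2 ratio was -0.22 for the zinc genes and -0.26 for the 9385 genes, with 4.13 for the metallothioneins, -0.25 for the SLC30A genes and -0.96 for the SLC39A genes. These counts describe 2 libraries.

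Several transporters overlap other genes in GENCODE 29. SLC39A1 overlaps a protein-coding gene on its own strand and CREB3L4 on the other, SLC39A3 overlaps a protein-coding gene on its own strand, and SLC39A7 overlaps RXRB and SLC39A9 overlaps ERH on the opposite strand. The libraries were directional, but the sources used here do not state whether the values use strand, so reads of these neighbours may be included. SLC39A7 was listed with 6 loci in the table, 5 of them at 0 in both lines.

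Among 10 other genes of zinc handling, 8 had a mean of 1 TPM or more. GPR39, a receptor that senses zinc outside the cell, was listed at 0 in MDA PCa 2b and was at 10.4 or 104 TPM in RC77 T/E, so that it passed this filter through RC77 T/E alone. CBWD1 and CBWD2, near-copies that belong to the family of zinc chaperones for metallopeptidases and may share reads, were 7.26-fold and 2.29-fold higher in MDA PCa 2b. After centring on the median of the protein-coding genes under the same filter CBWD2 was within 2-fold. The other 5 genes were within 2-fold, METAP1, the metallopeptidase, among them, at 1.09-fold higher in RC77 T/E. On the log2 scale with 1 TPM added, 2 of the 8 genes exceeded 2-fold in MDA PCa 2b and 1 did so in RC77 T/E. Under the same filter 19.7% and 19.1% of 11012 protein-coding genes did so, respectively. The median log2 ratio was -0.31 for the 8 genes and -0.15 for the 11012 genes.

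Citrate, the partner of zinc in prostatic fluid, is made by citrate synthase. Of 12 genes of citrate metabolism and transport, 11 had a mean of at least 1 TPM, with a median log2 ratio of -0.39. Of these 11, none exceeded 2-fold in RC77 T/E and 2 did so in MDA PCa 2b. Under the same filter 19.1% and 19.7% of 11012 protein-coding genes did so, respectively. ANKH, a membrane protein that exports ATP and citrate from cells, was at 26.7 or 267 TPM in MDA PCa 2b against 4.35 or 43.5 in RC77 T/E, 6.14-fold higher in MDA PCa 2b. IDH1, the cytosolic isocitrate dehydrogenase, was at 24.3 or 243 TPM in MDA PCa 2b against 4.20 or 42.0 in RC77 T/E, 5.79-fold higher in MDA PCa 2b. CS, which encodes citrate synthase, was 1.90-fold higher in MDA PCa 2b, and ACO1, the cytosolic aconitase, was 1.34-fold higher in RC77 T/E. Both genes were within 2-fold. IDH3A, a subunit of the mitochondrial isocitrate dehydrogenase, was 2.67-fold higher in MDA PCa 2b by the plain ratio, with a log2 ratio of -0.94 that lay inside the limit.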

How the data were processed

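RNA-Seq libraries were made from total RNA with a directional kit and sequenced paired-end, 1 per cell line. The submitters' processing notes name CASAVA, FastQC 0.11.9, Trimmomatic 0.38, Salmon 1.2.0 and GRCh38, and the row identifiers have the form Cufflinks gives. The deposited values are the authors' TPM per locus, normalized for gene length and library total, with their mean and standard error. No counts were used here, so depth and the precision it gives are unknown. The design had assumed plain TPM, but deposited values from 1 TPM upwards that have 3 or more decimals lack the decimal mark, and commas group their digits. Every position that leaves up to 3 digits before the mark was tried, and pairs whose mean and standard error match the deposited ones as written were kept. Of 22704 loci (87 repeated rows left out), 16212 had 1 position and 6492 had 2 or 3. On 5000 simulated rows, written by the same format rules, 2773 had 1 position, the true one in 2773. This checks the procedure, and cannot show whether the deposited values follow these rules. At the lowest positions TPM summed to 751125 for MDA PCa 2b, against 682469 for RC77 T/E, so that the totals are not determined. At the highest positions the sums were 2416346 and 2140326, more than the TPM of 1 library can add to. The open marks of all loci therefore cannot all be at their highest position at once.

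Loci of 1 symbol were summed. All 36 zinc genes are named, and other genes come from lists of zinc, copper, iron and citrate genes and of cell type markers. These genes and lists were chosen with earlier results of these data known. Some genes of the citrate and luminal lists are not reported here and enter no count or median. The log2 ratio used a pseudocount of 1 TPM and a mean of at least 1 TPM, and no test was made. Positions are those of the deposited table, and 36 of 36 genes matched GENCODE 29 by identifier, which gave overlaps, strands and the 31-base words. Windows before 27 of the 36 genes came from RefSeq (GRCh38.p14). Alternatives were the threshold, pseudocount, filter, scaling, largest locus and position of the marks. Python 3.11.15, numpy 2.4.6 and matplotlib 3.10.9 were used.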

Additional observations from a re-analysis of the deposited data

How the results depend on the processing

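MTF1, at a log2 ratio of -0.08, came to 0.08 after centring and to 0.05 after scaling to the upper quartile, and no other zinc gene with a mean of at least 1 TPM changed sign under any alternative tried. The 6 zinc genes past 2-fold in RC77 T/E were the same 6 genes with a pseudocount of 0.1 TPM, with none, after centring, after scaling to the upper quartile, without the filter, with the largest locus of a symbol and with open marks at their highest position. The count higher in MDA PCa 2b was 6 after centring, after scaling to the upper quartile and with the largest locus, 8 with a pseudocount of 0.1 TPM, with none and at the highest positions (SLC30A9 and SLC39A9 added), and 7 without the filter (MT4 added). The median log2 ratio of the metallothioneins was 1.00 over the 8 genes above 0 in either line against 3.72 over the 5 with a mean of at least 1 TPM, because genes near 0 TPM then enter it. With a threshold of 5 TPM, the zinc genes counted as expressed were 14 in RC77 T/E against 17 in MDA PCa 2b, and 22 in each line with open marks at their highest position, an alternative chosen after seeing the data. Of the 23 log2 ratios, that of SLC30A4 alone moved by more than 1.5-fold, to -3.12 without a pseudocount. The median of all genes lay at -0.15, and centring on it moves every ratio by that amount. No paired analysis was possible because neither line has a second library. For want of read counts, values below 1 TPM and values listed at 0 cannot be given an interval or a limit of detection.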

Other observations

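Genes of copper and iron handling, metals that metallothioneins (copper) and several SLC39A proteins (iron) also carry, were examined in the same way. All 10 copper genes had a mean of at least 1 TPM, and their median log2 ratio was -0.44. SOD1, the copper and zinc superoxide dismutase, was at 290 TPM in MDA PCa 2b against 120 in RC77 T/E, 2.42-fold higher in MDA PCa 2b, and CCS, the chaperone that loads it with copper, was at 33.96 and 15.6 TPM, 2.17-fold higher in the same line. ATP7B, a copper-exporting pump, was 4.12-fold higher in MDA PCa 2b, at 16.2 or 162 TPM against 3.93 or 39.3 TPM. SLC31A2, a copper transporter of endosomal and lysosomal membranes, was past 2-fold in RC77 T/E, at 6.48 or 64.8 TPM in MDA PCa 2b against 17.6 or 176 in RC77 T/E, a ratio of 2.72. The other 6 copper genes were within 2-fold on the log2 scale with 1 TPM added. On this scale 3 of the 10 exceeded 2-fold in MDA PCa 2b and 1 did so in RC77 T/E. Under the same filter 19.7% and 19.1% of 11012 protein-coding genes did so, respectively, with a median log2 ratio of -0.15. CCS was within 2-fold after centring and after scaling to the upper quartile, and by the plain ratio SLC31A1, 2.47-fold higher in MDA PCa 2b, and SCO2, 2.05-fold higher in RC77 T/E, were past it.

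Of 10 iron genes, 9 had a mean of at least 1 TPM, with a median log2 ratio of -0.20. FTH1, the heavy chain of the iron store ferritin, was at 2126 TPM in MDA PCa 2b against 676 in RC77 T/E, 3.15-fold higher in MDA PCa 2b. HMOX1, the enzyme that releases iron from haem, was at 4.87 and 0.841 TPM, and SLC40A1, which encodes the iron exporter ferroportin, was at 2.42 and 0.145 TPM, respectively. TFR2, a transferrin receptor, was at 0.338 TPM in MDA PCa 2b against 2.51 in RC77 T/E, and was past 2-fold in RC77 T/E on the log2 scale with 1 TPM added. TFR2 passed the filter through RC77 T/E alone, and HMOX1 and SLC40A1 passed it through MDA PCa 2b alone. The other 5 iron genes, TFRC among them at 1.15-fold higher in MDA PCa 2b, were within 2-fold on the same scale. Of the 9 iron genes, 3 thus exceeded 2-fold in MDA PCa 2b and 1 did so in RC77 T/E. The shares of 11012 protein-coding genes under the same filter were 19.7% and 19.1%, respectively, with a median log2 ratio of -0.15. SLC25A37 was 2.06-fold higher in RC77 T/E by the plain ratio. After centring on the median of the protein-coding genes under the same filter, STEAP3 and SLC25A37 both passed 2-fold in RC77 T/E.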
